A study of Mus musculus with 9 samples.

Results

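The DNA replication genes described here are 39 genes of the replication machinery and of its immediate supply and control, chosen by name and function from 34779 named genes in the expression table. They fall into 9 roles: the Mcm2-7 helicase core, origin recognition and licensing, helicase activation, polymerases and primase, the clamp with its loader and the single-strand binding proteins, Okazaki fragment joining, deoxynucleotide synthesis, G1/S regulators, and chromatin assembly. All 39 were found in the table. For 37 of them the mean level over all libraries was at least 1 TPM (a transcript's share of all transcripts, corrected for length and scaled to a common total), which was the minimum for testing. Cdc6, which loads the helicase at origins, and Pole, the catalytic subunit of the leading-strand polymerase, lay below it.

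The study profiled neonatal mouse cardiac fibroblasts, wild type in all groups, by RNA sequencing at day 14 after virus infection. The 9 libraries form 3 groups of 3. DsRed cells, the negative control, were given a virus for a red fluorescent protein. MGT cells received virus for Mef2c, Gata4 and Tbx5, cardiac transcription factors used to turn fibroblasts into cells with cardiomyocyte features. MGT+TMP269 cells received the same factors and TMP269, which the labels describe as an HDAC4 inhibitor and which is known as an inhibitor of class IIa histone deacetylases. All cells, the controls included, were exposed to virus 24 h after plating and then kept in the same induction medium. The sources used here give no virus backbone, promoter, share of infected cells or compound dose. The replicates are labelled biological without a named culture or animal, so all p-values refer to library-to-library spread, part of which can be technical.

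Before a cell copies its DNA, the origin recognition complex with Cdc6 and Cdt1 loads the Mcm2-7 helicase in G1. Cyclin E and its kinase, Cdc45, the GINS complex and Mcm10 then start the helicase, the polymerases copy both strands on the sliding clamp Pcna, and replication protein A covers the exposed single strands. Many of these genes are transcribed at the G1/S boundary under E2F factors. Postnatal cardiomyocytes largely leave the cell cycle, whereas cardiac fibroblasts in culture can divide. In a bulk culture, fewer cells in S phase and less RNA per cell cannot be told apart.

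DsRed replicate 2 stood apart from the other libraries. Across all tested genes its correlation with the other DsRed libraries was 0.942 and 0.943, against 0.973 between those and 0.978 to 0.981 within the other groups. Its upper quartile was 5.36 TPM, against 8.66 to 9.54 TPM elsewhere. It was the lowest library of its group for 28 of the 39 replication genes and for 68.7% of all tested genes. Results for the 39 genes, and for genes described from related lists, are therefore also given without it where the call changes. Those of the cell-type markers are not. The comparison of MGT+TMP269 with MGT is affected as well, because all 3 groups share 1 estimate of the spread. The values are TPM, so read depth is unknown and no counting error is given.

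The groups also differed in the cell-type markers they carried. The summed level of 10 cardiomyocyte markers was 246 to 377 TPM in the DsRed libraries, 11050 to 12010 in MGT and 14410 to 15670 in MGT+TMP269. That of 10 fibroblast markers was 6071 to 11360 TPM in DsRed, 7724 to 8275 in MGT and 2390 to 2534 in MGT+TMP269, so the cultures carried the markers of their labelled type in every group. Of these 10, Col3a1, Dcn, Lum, Pdgfra and Tcf21 fell and Thy1 rose in MGT against DsRed. Rises and falls of single markers are calls by limma at an adjusted p under 0.05. In MGT against DsRed, 8.14% of all tested genes rose and 4.18% fell. A list of 12 macrophage markers summed to 663 to 1876 TPM in DsRed, 1730 to 3264 in MGT and 96.8 to 145 in MGT+TMP269. All 12 fell in MGT+TMP269 against MGT, where 5.97% of all tested genes fell. For 9 endothelial markers the sums were 29.4 to 33.0 TPM in DsRed, 16.5 to 24.6 in MGT and 9.95 to 12.3 in MGT+TMP269, with Kdr and Tie1 under 1 TPM in every library. Measured smooth muscle and pericyte markers (8) summed to 3112 to 3531 TPM in DsRed, 4257 to 4272 in MGT and 2566 to 2643 in MGT+TMP269, and epicardial and mesothelial markers (7) to 176 to 271, 370.0 to 385 and 397 to 426 TPM. These sums hide opposite changes in MGT against DsRed. Acta2 and Cspg4 rose there, while Cnn1, Smtn and Rgs5 fell. Likewise Msln, Krt19 and Tbx18 rose, while Wt1, Upk3b, Gpm6a and Aldh1a2 fell. No listed marker was at 0 in all libraries. The part of these shifts in the values of the replication genes was not tested.

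Replication genes were expressed in every group. Summed over the 39 genes, expression was 579.7, 457 and 536 TPM in the DsRed libraries, 421, 454 and 445.5 TPM in MGT, and 428, 451 and 445 TPM in MGT+TMP269. In TPM, all DsRed libraries lay above all others, DsRed replicate 2 only just. The place of that library depends on scaling. Median-ratio scaling would divide its values by 0.721, and those of the other libraries by 1.003 to 1.099. By role, the gap sat in deoxynucleotide synthesis, whose 4 genes summed to 160.2, 128 and 156.5 TPM in DsRed, 82.7, 84.3 and 85.6 TPM in MGT, and 79.1, 85.2 and 76.8 TPM in MGT+TMP269. These groups did not overlap between DsRed and either MGT group, and the 2 MGT groups overlapped. The clamp, clamp loader and single-strand binding group was the most abundant role in every library, at 164 to 189 TPM in DsRed, 162 to 171.5 TPM in MGT and 179 to 184 TPM in MGT+TMP269. The helicase core summed to 37.1 to 75.0 TPM in DsRed, 57.0 to 60.1 in MGT and 35.4 to 50.4 in MGT+TMP269. The DsRed range covered every other sum but the lowest of MGT+TMP269.

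**Figure D1:**
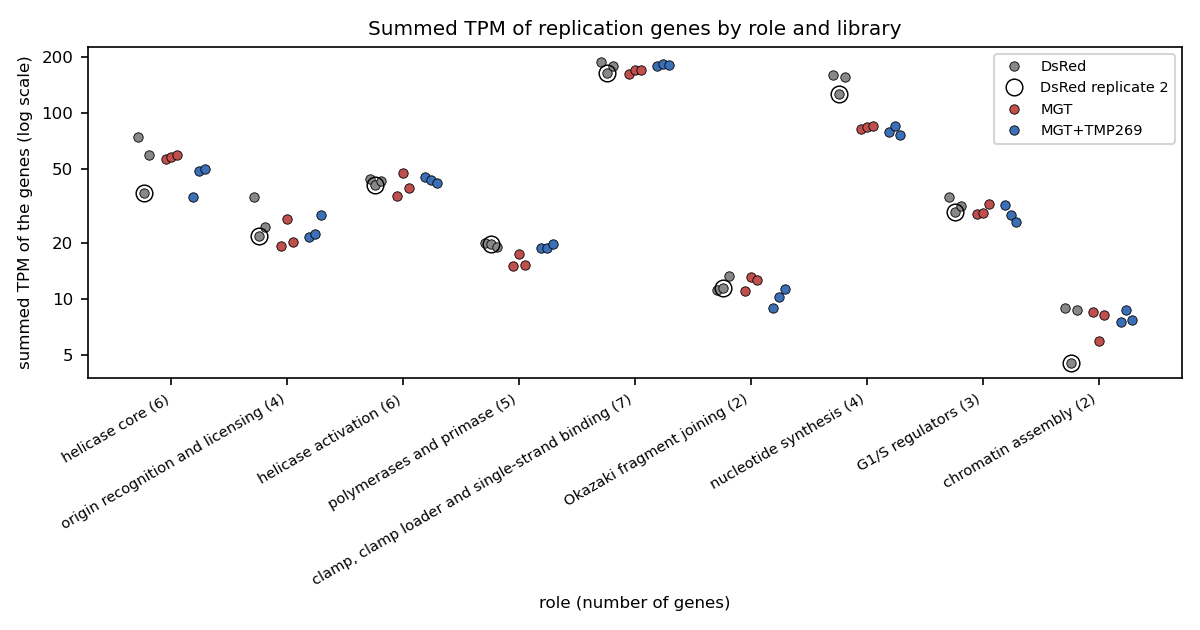
Summed TPM of the replication genes by role (columns along the x axis, with the number of genes) in each of the 9 libraries, on a log y axis, with DsRed replicate 2 ringed. The nucleotide synthesis sums are 128 to 160.2 TPM in DsRed and 76.8 to 85.6 TPM in both MGT groups, while the sums of the other roles overlap between DsRed and at least 1 MGT group.

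With the factors alone (MGT against DsRed), 3 replication genes fell and 0 rose of the 37 tested, by limma at an adjusted p under 0.05. Those that fell were Rrm1 and Tyms, which make DNA precursors, and Rpa1, the large subunit of replication protein A, each to about the same extent on the log2 scale (-0.93, -1.004 and -0.98). Of all 13228 tested genes, 8.14% rose and 4.18% fell. At an unadjusted p under 0.05, 3 replication genes were higher (Mcm6, Pcna and Rpa2) and 4 lower, where 16.1% of all tested genes were higher and 8.84% lower. The median log2 fold change of the 37 genes was -0.04, against 0.11 for all tested genes.

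With the compound added to the factors (MGT+TMP269 against MGT), 1 of 37 rose, Rpa1, and 0 fell, while 3.32% of all tested genes rose and 5.97% fell. At an unadjusted p under 0.05, 4 replication genes were higher and 3 lower, against 11.6% and 10.1% of all tested genes. Their median log2 fold change was -0.08, and that of all tested genes was 0.11. Without DsRed replicate 2, 3 rose (Pold1, Rfc5 and Rpa1) and 4 fell (Mcm5, Mcm6, Rpa2 and E2f1), at a background of 19.3% higher and 11.3% lower. Leaving out that library changes only the spread estimate in this comparison, not the fold changes.

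With both against the control (MGT+TMP269 against DsRed), Tyms and Rrm1 fell and Rfc5, a subunit of the clamp loader, rose, at a background of 14.7% higher and 8.06% lower. By unadjusted p under 0.05, 3 were higher and 6 lower, against 25.3% and 11.9% of all tested genes. The median log2 fold change was -0.14 for the replication genes and 0.22 for all tested genes. Without DsRed replicate 2, 7 fell (Mcm4, Mcm5, Rpa1, Tyms, Rrm1, Rrm2 and E2f1) and 1 rose (Rfc5), against 21.4% higher and 15.3% lower among all genes. For the factors alone, leaving out the same library gave 4 that fell (Mcm4, Rpa1, Tyms and Rrm1) and 1 that rose (Pcna), against 12.5% higher and 13.8% lower. The 2 comparisons with DsRed share its libraries, and both comparisons of MGT+TMP269 share its own.

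The medians depend on how libraries are scaled. Under median-ratio scaling the median of all tested genes was -0.01, 0.01 and -0.00 in the 3 comparisons, in the order above, in place of 0.11, 0.11 and 0.22. The replication genes' median was then -0.15, -0.19 and -0.35, and under quantile normalization -0.26, -0.15 and -0.32. It lay below the median of all genes in each comparison under all 3 scalings. Among all called genes, the share that rose moved from 66.1% to 55.7% under median-ratio scaling for MGT against DsRed, and from 64.7% to 47.8% for MGT+TMP269 against DsRed.

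Most replication genes had 95% intervals within a change of 1 on the log2(TPM + 1) scale, but this scale understates changes of scarce genes. Orc1, at 0.398 to 1.81 TPM, lay inside that bound in all 3 comparisons. Mcm10 was 3.23-fold lower by mean TPM in MGT+TMP269 than in DsRed, with a log2 fold change of only -0.70. In MGT against DsRed, the 95% interval of the log2 fold change lay inside -1 to 1 for 30 of the 37 genes (81.1%, against 64.9% of all tested genes). The others were Ccne2, Gins1, Mcm2, Mcm6, Rpa1, Rrm1 and Tyms. For MGT+TMP269 the count was 27 of 37 against either MGT or DsRed (73.0%), where all genes gave 69.1% and 55.5%. Groups that did not overlap at all were found for 4 higher and 5 lower replication genes in MGT against DsRed, where 19.1% of all tested genes were higher and 9.63% lower in this sense. In MGT+TMP269 against MGT, 8 higher and 6 lower did not overlap, against 32.7% and 16.6% of all genes, and in MGT+TMP269 against DsRed 4 higher and 7 lower, against 29.8% and 12.1%.

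**Figure D2:**
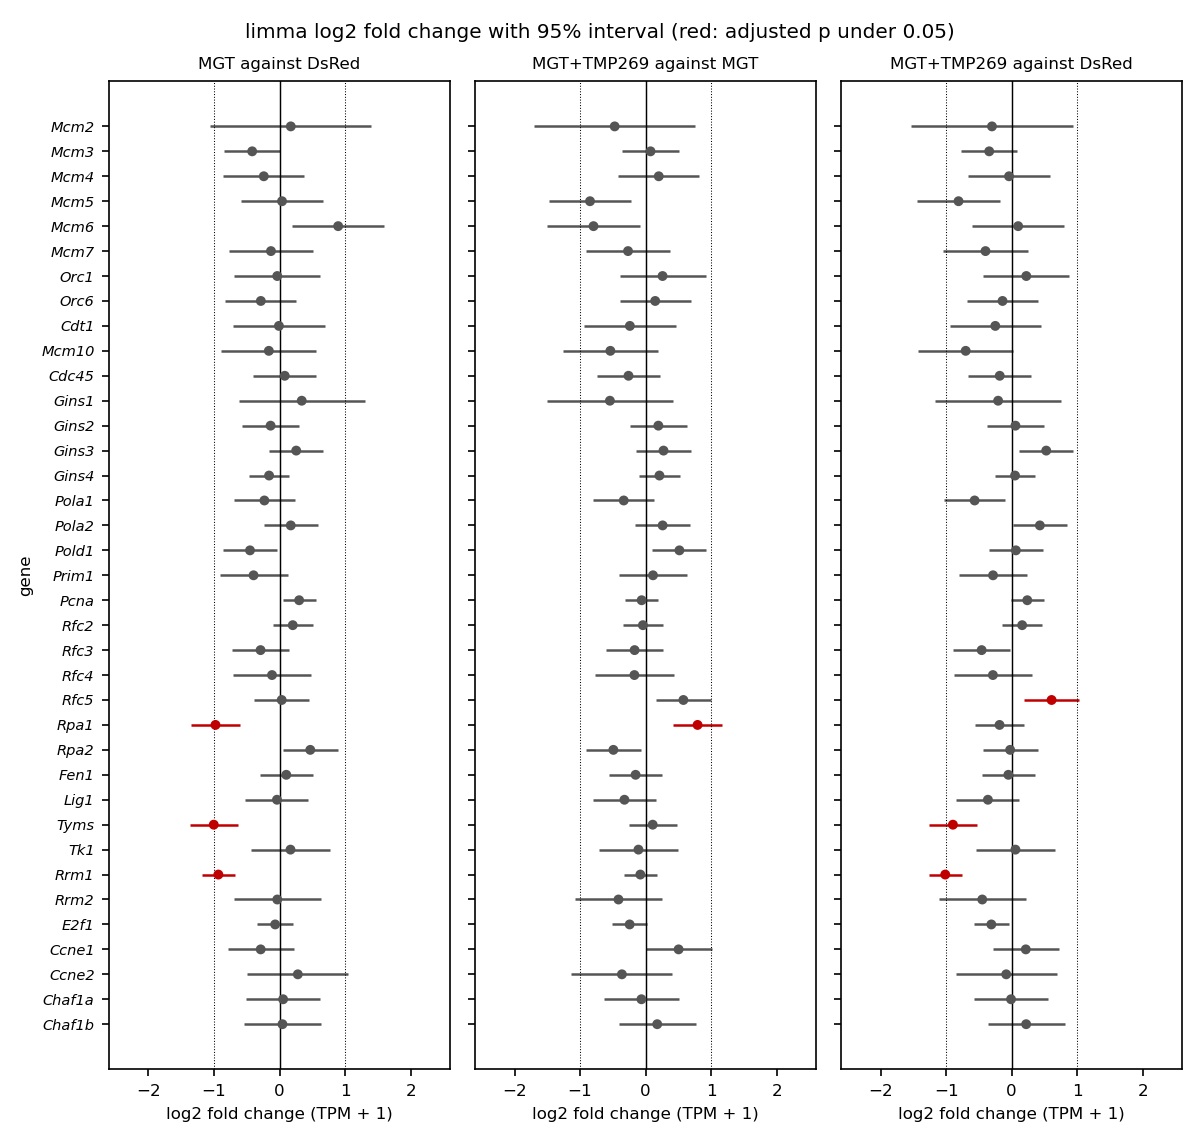
Log2 fold change of log2(TPM + 1) with its 95% interval for the 37 tested replication genes in the 3 comparisons, red where the adjusted p is under 0.05 and with dotted lines at -1 and 1. Red points are Rrm1, Tyms and Rpa1 below 0 in MGT against DsRed, Rpa1 above 0 in MGT+TMP269 against MGT, and Rrm1 and Tyms below and Rfc5 above 0 in MGT+TMP269 against DsRed.

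Among the genes of deoxynucleotide synthesis, the large subunit of ribonucleotide reductase, the enzyme that turns ribonucleotides into deoxyribonucleotides, was the most abundant. Rrm1 was at 98.5, 82.7 and 95.7 TPM in DsRed (92.3 ± 8.41, SD, n = 3), 48.2, 48.2 and 46.7 TPM in MGT (47.7 ± 0.877), and 45.2, 47.1 and 43.0 TPM in MGT+TMP269 (45.1 ± 2.06). Every library with the factors lay below every DsRed library, while the MGT groups overlapped. Its level was 1.93-fold lower in MGT than in DsRed (log2 fold change -0.93, SE 0.11, adjusted p = 0.000419) and 2.05-fold lower in MGT+TMP269 (-1.01, SE 0.11, adjusted p = 0.00017). Between the MGT groups the log2 difference was -0.08 (adjusted p = 0.748).

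Thymidylate synthase, which makes the thymine nucleotide, was lower than DsRed in both MGT groups as well. Tyms was at 40.7, 35.04 and 39.1 TPM in DsRed (38.3 ± 2.91), 19.2, 19.0 and 17.5 TPM in MGT (18.6 ± 0.958), and 17.8, 25.4 and 17.9 TPM in MGT+TMP269 (20.3 ± 4.35). No MGT or MGT+TMP269 library reached the lowest DsRed value, and MGT+TMP269 replicate 2 was the highest of the 6. The fall was 2.06-fold in MGT (-1.004, SE 0.16, adjusted p = 0.0027) and 1.88-fold in MGT+TMP269 (-0.90, SE 0.16, adjusted p = 0.0038). Rrm1 and Tyms passed the threshold in both comparisons with DsRed under all 18 alternative settings. A pseudogene of Tyms was listed at a mean of 0.0269 TPM.

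The other members of this role did not share those values. Rrm2, the small subunit of the same reductase whose protein is made in S phase, was at 10.2, 4.47 and 9.99 TPM in DsRed, 7.08, 6.398 and 9.51 TPM in MGT, and 6.69, 4.71 and 5.05 TPM in MGT+TMP269. All 3 groups overlapped, the DsRed group with the others through its replicate 2. Its log2 fold change was -0.03 for MGT and -0.45 for MGT+TMP269 against DsRed (adjusted p = 0.957 and 0.298), and without DsRed replicate 2 the latter was -0.79 with an adjusted p of 0.0129. Tk1, the thymidine kinase of the salvage route, was at 10.8, 5.52 and 11.8 TPM in DsRed, 8.24, 10.7 and 11.97 TPM in MGT, and 9.41, 8.05 and 10.8 TPM in MGT+TMP269. These groups overlapped throughout, with adjusted p-values of 0.759 to 0.895.

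Of the clamp, clamp loader and single-strand binding genes, Rpa1 was the 1 member that fell with the factors and was higher again with the compound. Rpa1 was at 63.0, 40.2 and 56.7 TPM in DsRed (53.3 ± 11.8), 25.3, 26.5 and 26.5 TPM in MGT (26.1 ± 0.678), and 45.1, 43.9 and 49.2 TPM in MGT+TMP269 (46.0 ± 2.79). The MGT libraries lay below all others, and the MGT+TMP269 libraries lay inside the DsRed range. It was 2.04-fold lower in MGT than in DsRed (-0.98, SE 0.17, adjusted p = 0.00362), in all 18 alternative settings. MGT+TMP269 was 1.76-fold above MGT (0.79, SE 0.17, adjusted p = 0.0165). That call was lost when any 1 of the 6 libraries compared was left out, with adjusted p-values of 0.0555 to 0.0781 and log2 fold changes of 0.75 to 0.83. Against DsRed, MGT+TMP269 differed by -0.18 (adjusted p = 0.441), and by -0.37 without DsRed replicate 2 (adjusted p = 0.0086).

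Rpa2, the middle subunit of the same protein, was at 5.60, 8.22 and 8.68 TPM in DsRed, 9.68, 11.3 and 10.9 TPM in MGT, and 7.64, 7.51 and 6.64 TPM in MGT+TMP269. MGT was above both other groups in every library, where for Rpa1 it was below both. Neither step passed the test (0.47 in MGT against DsRed, adjusted p = 0.154, and -0.49 in MGT+TMP269 against MGT, adjusted p = 0.157). Without DsRed replicate 2 the second had an adjusted p of 0.0434 and the first 0.0523. Rpa3, the small subunit and not among the 39, differed by -0.22, 0.00 and -0.22 in the 3 comparisons, none called.

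Rfc5, a small subunit of the clamp loader, was at 5.29, 4.64 and 5.25 TPM in DsRed (5.06 ± 0.363), 4.54, 6.59 and 4.66 TPM in MGT (5.26 ± 1.16), and 7.70, 9.54 and 7.604 TPM in MGT+TMP269 (8.28 ± 1.09). Each MGT+TMP269 library was above all others. The rise was 1.64-fold against DsRed (0.61, SE 0.19, adjusted p = 0.045), a call kept in only 5 of 18 alternative settings. It was lost without MGT replicate 1 or 3, any MGT+TMP269 library, or DsRed replicate 1 or 3 (adjusted p up to 0.163), and its adjusted p was 0.257 under quantile normalization. Against MGT the difference was 0.58 (adjusted p = 0.1001, and 0.0257 without DsRed replicate 2). Rfc5 overlaps Wsb2 on the opposite strand, which averaged 185 TPM. The sources used here do not say whether strand was used in quantification, so reads of both genes may not be separated. In all, 12 of the 39 genes overlap a measured gene on the opposite strand, among them Mcm7 with Cops6 (mean 167 TPM) and Rfc4 with Eif4a2 (mean 434 TPM), and their values are uncertain to that extent.

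Pcna, the sliding clamp, was at 58.5, 47.1 and 52.8 TPM in DsRed, 63.8, 64.7 and 66.3 TPM in MGT, and 60.9, 63.3 and 62.6 TPM in MGT+TMP269. In TPM, all MGT and MGT+TMP269 libraries were above all DsRed libraries. The differences from DsRed were 0.30 (adjusted p = 0.133) and 0.24 (adjusted p = 0.155), and without DsRed replicate 2 the first was 0.22 with an adjusted p of 0.0424. These differences depend on scaling. Under median-ratio scaling the limma adjusted p-values were 0.384 and 0.98, and the second difference changed sign in 1 of 18 alternative settings. Over all 9 libraries the highest TPM of Pcna was 1.41 times its lowest. Rfc2, another loader subunit, was at 32.5, 43.8 and 41.4 TPM in DsRed, 45.2, 42.6 and 47.0 TPM in MGT, and 43.1, 45.4 and 42.4 TPM in MGT+TMP269, with overlapping groups and no call. Rfc3 and Rfc4 had log2 fold changes of -0.46 to -0.12 in the 3 comparisons, with no call.

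**Figure D3:**
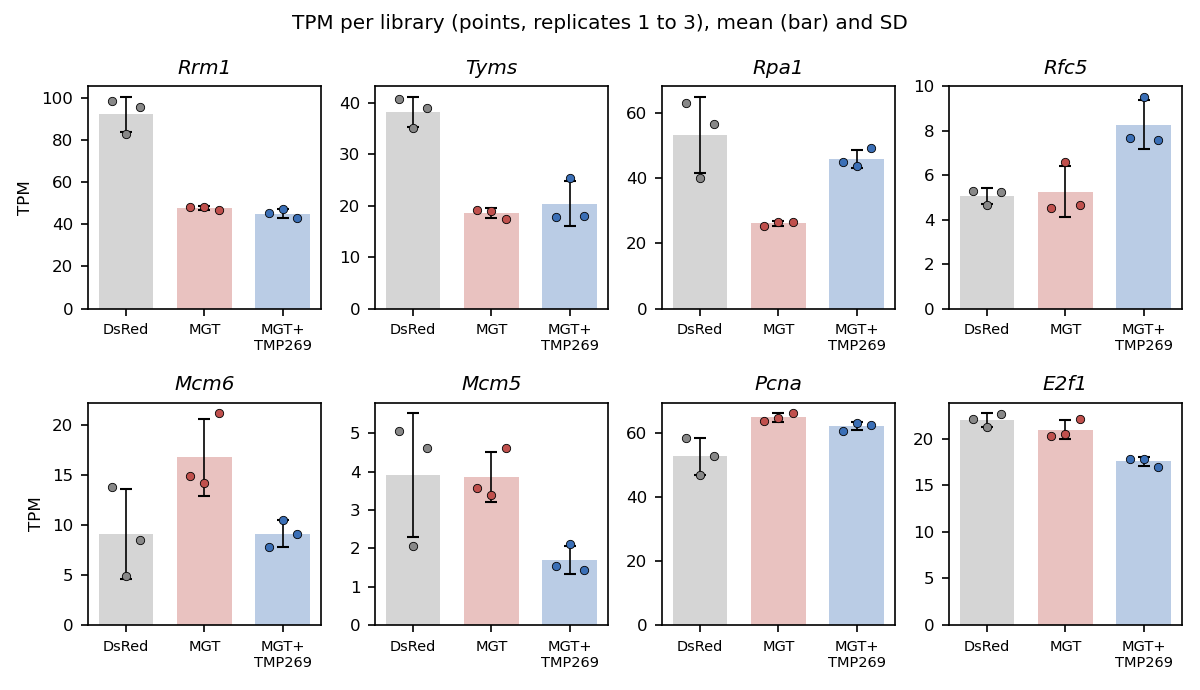
TPM of Rrm1, Tyms, Rpa1, Rfc5, Mcm6, Mcm5, Pcna and E2f1 in each library (points) with the group mean (bar, starting at 0) and SD. For Rrm1 and Tyms both MGT groups sit below DsRed, Rpa1 is low in MGT alone (25.3 to 26.5 TPM), and Rfc5 is highest in MGT+TMP269 (7.604 to 9.54 TPM).

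In the helicase core, 0 of 6 genes were called by limma in any comparison. At an unadjusted p under 0.05, 1 was higher in MGT against DsRed (Mcm6), 2 were lower in MGT+TMP269 against MGT (Mcm5 and Mcm6) and 1 was lower in MGT+TMP269 against DsRed (Mcm5). The 6 proteins form a single ring, and their transcripts had median log2 fold changes of -0.05, -0.37 and -0.32 in the 3 comparisons, in the same order.

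Mcm6 was at 13.8, 4.94 and 8.47 TPM in DsRed, 14.9, 14.2 and 21.2 TPM in MGT, and 7.80, 10.6 and 9.10 TPM in MGT+TMP269. Every MGT library was above all others. The difference was 0.89 (SE 0.31, adjusted p = 0.107) for MGT against DsRed, and its size depended on the DsRed libraries kept. Without DsRed replicate 1 the difference was 1.22 with an adjusted p of 0.0217. Without DsRed replicate 2 the difference was 0.56 with an adjusted p of 0.126. For MGT+TMP269 against MGT it was -0.79 (SE 0.31, adjusted p = 0.174, and 0.0251 without DsRed replicate 2).

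Mcm5 was at 5.05, 2.06 and 4.62 TPM in DsRed, 3.57, 3.39 and 4.61 TPM in MGT, and 1.55, 2.12 and 1.43 TPM in MGT+TMP269. The MGT+TMP269 libraries lay below every other library but DsRed replicate 2, which fell between them. The log2 fold change was -0.85 (SE 0.28) against MGT and -0.81 (SE 0.28) against DsRed, with adjusted p-values of 0.103 and 0.0651. Leaving out DsRed replicate 2, it was -0.85 and -1.12, with adjusted p-values of 0.0063 and 0.0021.

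Mcm7 was at 19.9, 10.4 and 18.2 TPM in DsRed, 14.3, 12.9 and 15.4 TPM in MGT, and 7.64, 13.8 and 14.7 TPM in MGT+TMP269, and the groups overlapped in all 3 comparisons. Mcm4 ranged from 4.44 TPM in DsRed replicate 2 to 10.4 TPM in DsRed replicate 3. Without that low library it was lower than DsRed in MGT (-0.59, adjusted p = 0.00559) and in MGT+TMP269 (-0.39, adjusted p = 0.0257), against -0.24 and -0.04 with it. Mcm2 had the widest spread within a group of the 37 tested genes, 5.40-fold among the DsRed libraries, from 3.25 to 17.5 TPM, and its adjusted p-values were 0.69 to 0.886. Mcm3 was the 1 helicase gene whose highest value, 12 TPM, was in DsRed replicate 2, and its log2 fold changes were -0.42, 0.08 and -0.34, none called.

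The promoter windows of the 4 called genes, and of Mcm6 and Mcm7 from the helicase core, are shown so that the letters of the called genes can be read beside those of 2 uncalled genes with the classical E2F letters. They are RefSeq sequences of build GRCm38.p6, 250 bases before to 50 after the annotated start, read 5′ to 3′ on the gene's strand. Rrm1 lies at chr7:102441445-102441744 on the plus strand. The others are on the minus strand: Tyms at chr5:30073576-30073875, Rpa1 at chr11:75348334-75348633, Rfc5 at chr5:117388974-117389273, Mcm6 at chr1:128359656-128359955 and Mcm7 at chr5:138171834-138172133. Capitals mark TTTCGCGC or TTTGGCGC (E2F), CCAAT (NF-Y), and TTTGAA or TTCGAA (the cell cycle homology region, CHR), on either strand.
Rrm1: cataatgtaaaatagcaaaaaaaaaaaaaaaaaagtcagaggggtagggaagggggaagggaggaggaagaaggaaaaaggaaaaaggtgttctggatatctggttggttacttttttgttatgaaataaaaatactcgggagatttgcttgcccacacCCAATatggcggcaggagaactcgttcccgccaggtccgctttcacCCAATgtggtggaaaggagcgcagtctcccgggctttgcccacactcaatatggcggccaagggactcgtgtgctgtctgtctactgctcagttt
Tyms: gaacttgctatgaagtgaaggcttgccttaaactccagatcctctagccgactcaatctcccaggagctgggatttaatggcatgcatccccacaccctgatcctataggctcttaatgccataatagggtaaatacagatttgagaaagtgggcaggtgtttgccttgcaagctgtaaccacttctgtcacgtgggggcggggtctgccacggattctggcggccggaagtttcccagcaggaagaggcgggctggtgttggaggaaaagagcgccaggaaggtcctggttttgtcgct
Rpa1: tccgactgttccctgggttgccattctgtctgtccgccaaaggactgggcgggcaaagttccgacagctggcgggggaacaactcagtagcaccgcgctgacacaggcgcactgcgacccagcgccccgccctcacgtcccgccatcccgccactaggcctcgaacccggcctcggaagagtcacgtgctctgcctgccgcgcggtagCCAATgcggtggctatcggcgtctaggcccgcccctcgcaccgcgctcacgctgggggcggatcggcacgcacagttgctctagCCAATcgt
Rfc5: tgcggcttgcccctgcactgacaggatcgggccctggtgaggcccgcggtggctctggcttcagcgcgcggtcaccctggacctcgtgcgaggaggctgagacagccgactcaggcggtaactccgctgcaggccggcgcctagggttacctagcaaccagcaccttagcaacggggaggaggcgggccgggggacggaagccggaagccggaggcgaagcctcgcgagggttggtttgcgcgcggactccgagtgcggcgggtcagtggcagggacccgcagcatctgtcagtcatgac
Mcm6: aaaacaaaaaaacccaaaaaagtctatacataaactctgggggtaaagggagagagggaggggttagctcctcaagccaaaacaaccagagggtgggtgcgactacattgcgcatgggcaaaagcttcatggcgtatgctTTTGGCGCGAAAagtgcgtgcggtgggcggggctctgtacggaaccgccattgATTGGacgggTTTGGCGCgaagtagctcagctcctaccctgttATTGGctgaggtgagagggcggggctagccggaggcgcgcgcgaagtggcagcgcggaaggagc
Mcm7: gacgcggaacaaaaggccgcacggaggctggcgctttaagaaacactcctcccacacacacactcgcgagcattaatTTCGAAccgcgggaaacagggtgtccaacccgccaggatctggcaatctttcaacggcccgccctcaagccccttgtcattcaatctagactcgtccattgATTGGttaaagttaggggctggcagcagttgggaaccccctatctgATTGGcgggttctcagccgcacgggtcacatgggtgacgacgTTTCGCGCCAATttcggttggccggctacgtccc

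Of the 4 called genes, 0 held the E2F letters in this window, against 25% of the windows of the replication genes. With 4 genes, a count of 0 cannot be set apart from that share. Rrm1 and Rpa1 each held 2 CCAAT matches, while Tyms and Rfc5 held none of the motifs searched. Mcm6 held 3 E2F matches, of which 2 overlap, and 2 CCAAT matches. The Mcm7 window shown held 1 E2F match that runs into a CCAAT, with 3 CCAAT and 1 CHR match in all. Another Mcm7 window, at chr5:138171217-138171516, is not shown and held 0 E2F, 1 CCAAT and 0 CHR matches. The Rrm1, Tyms, Rpa1 and Rfc5 windows were chosen after their values were seen. A match is a description of the letters and not a binding site, and a window without a match says nothing of the factor.

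The table of promoters matched 32 of the 39 genes, with 36 windows. The E2F letters were in 9 of the 36 windows (25%), against 0.813% of all 32851 windows of the same length, on either strand. TTTCGCGC alone was in 6 (16.7%, against 0.323%) and TTTGGCGC alone in 5 (13.9%, against 0.514%). CCAAT was in 20 (55.6%, against 37.4%) and a CHR motif in 6 (16.7%, against 19.2%). The genes with E2F letters were Cdt1, Lig1, Mcm3, Mcm5, Mcm6, Mcm7, Orc1, Pola1 and Rfc3. Of these 9 genes, limma called 0 in any comparison, where 3.32% to 14.7% of all tested genes were called in either direction taken alone. With 9 genes, a count of 0 cannot be set apart from such shares. Leaving out DsRed replicate 2, Mcm5 and Mcm6 fell in MGT+TMP269 against MGT (2 of 9, with 11.3% of all genes lower) and Mcm5 in MGT+TMP269 against DsRed (1 of 9, with 15.3% lower). At an unadjusted p under 0.05, Mcm6 was higher in MGT against DsRed, Mcm5 and Mcm6 were lower in MGT+TMP269 against MGT, and Mcm5, Pola1 and Rfc3 were lower in MGT+TMP269 against DsRed. The matching shares of all tested genes were 16.1% higher, 10.1% lower and 11.9% lower. The median log2 fold change of the 9 genes was -0.04, -0.27 and -0.36 in these 3 comparisons.

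Of origin recognition and licensing, 3 of 4 genes were tested and 0 called, also at an unadjusted p under 0.05. Orc6, a subunit of the origin recognition complex, was at 31.6, 19.5 and 18.8 TPM in DsRed, 16.4, 23.6 and 16.1 TPM in MGT, and 18.3, 18.7 and 25 TPM in MGT+TMP269, with all groups overlapping. It overlaps Vps35 on the opposite strand (mean 103 TPM). Cdt1, which brings the helicase to origins, was at 2.59, 0.962 and 3.24 TPM in DsRed, 2.11, 1.56 and 2.68 TPM in MGT, and 2.06, 1.68 and 1.17 TPM in MGT+TMP269, again with overlap. Orc1, the largest subunit of the complex, ranged from 0.398 to 1.81 TPM and Cdc6 from 0.320 to 1.06 TPM over all libraries, near the filter.

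Among the genes of helicase activation, 0 of 6 were called. By unadjusted p under 0.05, Gins3 was higher in MGT+TMP269 against DsRed (0.53, adjusted p = 0.0681), and it alone. Gins4 and Gins2, subunits of the GINS complex that joins the moving helicase, were the most abundant. Gins4 was at 25.6, 26.0 and 22.9 TPM in DsRed, 19.1, 23.5 and 23.9 TPM in MGT, and 25.3, 27.6 and 24.4 TPM in MGT+TMP269. MGT+TMP269 lay above MGT in every library, by 0.21 (SE 0.14, adjusted p = 0.433). Gins2 was at 9.56, 9.52 and 10.6 TPM in DsRed, 8.07, 11.4 and 7.61 TPM in MGT, and 12.3, 9.34 and 9.57 TPM in MGT+TMP269, with overlap in each comparison.

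Among the scarcer members of this role, Gins1 and Mcm10 varied widely between libraries. Gins1 was at 6.57 TPM in MGT replicate 2 and at 1.35 and 2.16 TPM in the other MGT libraries, a 4.86-fold range within the group, and was not called. Mcm10, which helps to start the helicase, had the widest range over all libraries, 8.84-fold, from 0.315 TPM in MGT+TMP269 to 2.78 TPM in DsRed replicate 3. Its log2 fold change was -0.70 in MGT+TMP269 against DsRed (SE 0.32, adjusted p = 0.146). Cdc45, the partner of GINS, differed by 0.08, -0.26 and -0.18 in the 3 comparisons with no call.

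Of the polymerase and primase genes, 4 of 5 were tested and 0 called. At an unadjusted p under 0.05, Pold1 was lower in MGT against DsRed and higher in MGT+TMP269 against MGT, and in MGT+TMP269 against DsRed Pola2 was higher and Pola1 lower. Pold1, the catalytic subunit of the lagging-strand polymerase, was at 6.89, 10.2 and 8.36 TPM in DsRed, 6.19, 5.62 and 5.83 TPM in MGT, and 8.71, 7.82 and 10.1 TPM in MGT+TMP269. The MGT libraries lay below all others, as for Rpa1. The difference was -0.45 (SE 0.18, adjusted p = 0.161) and then 0.52 (SE 0.18, adjusted p = 0.129, and 0.0163 without DsRed replicate 2).

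The subunits of the polymerase alpha-primase complex, which lays down primers, had unlike values. Pola2, the accessory subunit, was at 4.01, 2.99 and 4.495 TPM in DsRed, 4.51, 4.85 and 3.88 TPM in MGT, and 5.30, 5.40 and 5.69 TPM in MGT+TMP269, where every library was above all others. Against DsRed the difference was 0.43 (SE 0.18, adjusted p = 0.122). Pola1, the catalytic subunit, was at 4.16, 3.89 and 3.22 TPM in DsRed, 2.31, 3.69 and 3.24 TPM in MGT, and 1.81, 2.62 and 2.23 TPM in MGT+TMP269. The MGT+TMP269 libraries lay below all DsRed libraries, by -0.56 (SE 0.21, adjusted p = 0.0808). Prim1, the primase subunit, had log2 fold changes of -0.40, 0.11 and -0.28, and Pole was between 0.605 and 1.74 TPM.

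In Okazaki fragment joining, 0 of 2 genes were called, also at an unadjusted p under 0.05. Fen1, which trims the flap, was at 6.57, 5.17 and 7.48 TPM in DsRed, 6.34, 6.47 and 7.95 TPM in MGT, and 5.83, 5.96 and 6.52 TPM in MGT+TMP269. Lig1, the ligase that seals the nick, was at 4.61, 6.28 and 5.84 TPM in DsRed, 4.75, 6.77 and 4.76 TPM in MGT, and 3.21, 4.34 and 4.86 TPM in MGT+TMP269. The groups overlapped for both genes in every comparison. Fen1 overlaps Tmem258 on the opposite strand (mean 280 TPM).

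The 3 G1/S regulators were not called by limma either. By unadjusted p under 0.05, Ccne1 was higher in MGT+TMP269 against MGT and E2f1 was lower in MGT+TMP269 against DsRed. E2f1, a transcription factor of many replication genes, was the steadiest of the 37 tested genes, with a highest value 1.33 times its lowest over all libraries. It was at 22.1, 21.2 and 22.7 TPM in DsRed, 20.3, 20.5 and 22.1 TPM in MGT, and 17.8, 17.8 and 17.0 TPM in MGT+TMP269, so that MGT+TMP269 lay below every other library. The differences were -0.24 (SE 0.12, adjusted p = 0.288) against MGT and -0.31 (SE 0.12, adjusted p = 0.0946) against DsRed. These adjusted p-values were 0.0348 and 0.0126 without DsRed replicate 2.

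Ccne1, cyclin E1, was at 8.90, 7.00 and 6.56 TPM in DsRed, 6.16, 5.04 and 6.60 TPM in MGT, and 12.2, 7.64 and 7.25 TPM in MGT+TMP269. MGT+TMP269 was above MGT in every library, by 0.50 (SE 0.22, adjusted p = 0.229). Ccne2, its paralogue, ranged from 1.18 to 4.62 TPM, both extremes in DsRed, and its log2 fold changes were 0.28, -0.36 and -0.08.

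The chromatin assembly factor subunits, which place histones on new DNA, had overlapping groups throughout. Chaf1a was at 3.67, 1.76 and 4.28 TPM in DsRed, 3.57, 3.05 and 3.13 TPM in MGT, and 3.11, 2.78 and 3.30 TPM in MGT+TMP269. Chaf1b was at 5.29, 2.80 and 4.504 TPM in DsRed, 5.02, 2.93 and 5.09 TPM in MGT, and 4.46, 5.96 and 4.49 TPM in MGT+TMP269. Their log2 fold changes lay between -0.06 and 0.22, with 0 calls, also at an unadjusted p under 0.05.

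**Figure D4:**
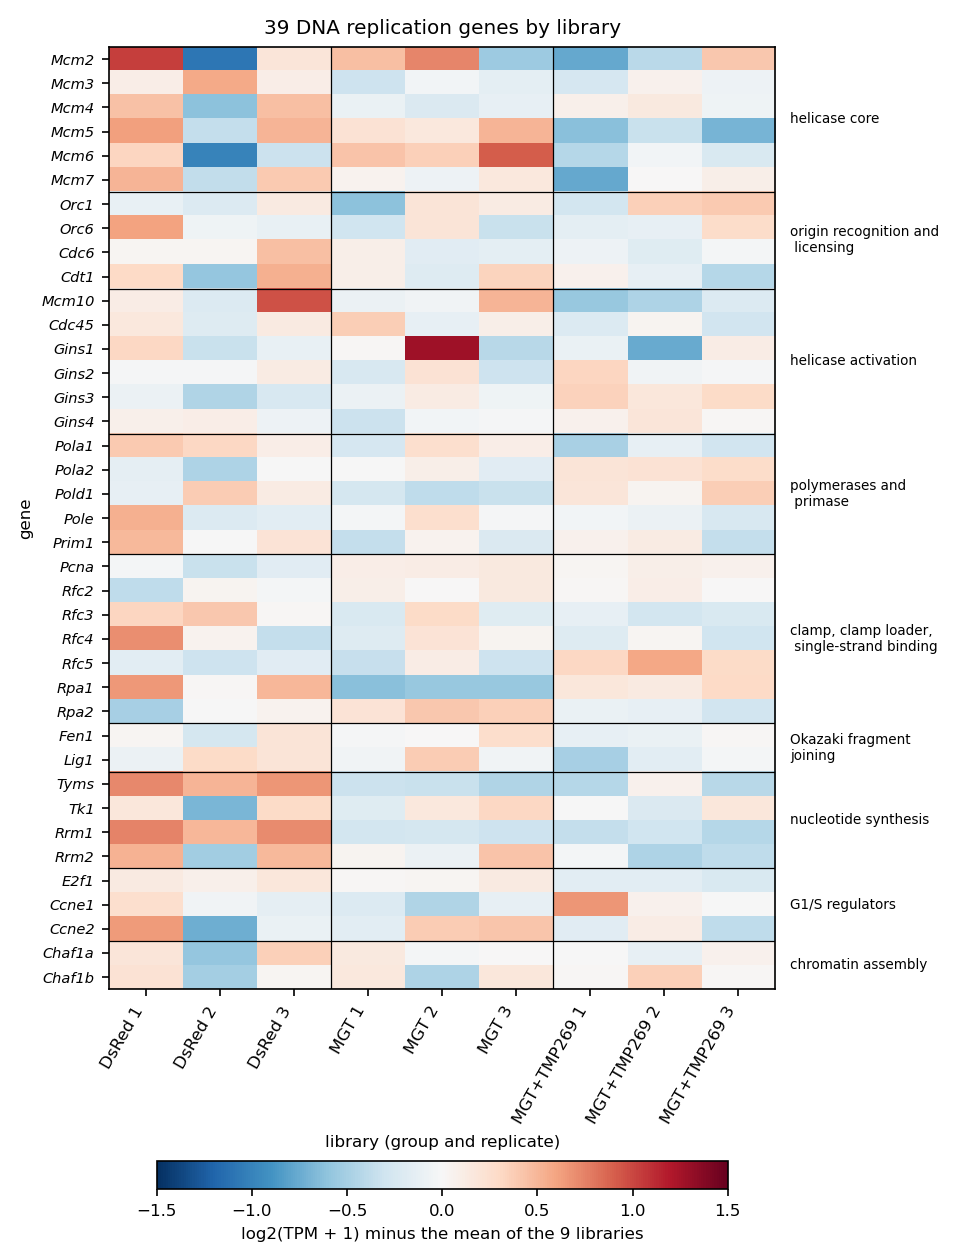
Log2(TPM + 1) of each of the 39 replication genes minus its mean over the 9 libraries, with genes in rows by role and libraries in columns by group, on a colour scale that stops at -1.5 and 1.5. Rrm1 and Tyms separate DsRed from the 6 other libraries, Rpa1 is low in the 3 MGT libraries, and DsRed replicate 2 is below the other DsRed libraries for 28 of the 39 genes.

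Beyond the 39 genes, 33 further components of the replication machinery were listed, of which 30 were tested. In MGT against DsRed 1 rose and 0 fell, in MGT+TMP269 against MGT 0 were called (1 higher, 0 lower at unadjusted p under 0.05), and in MGT+TMP269 against DsRed 3 rose and 0 fell. The rises numbered 1, 3 and 5 and the falls 1, 0 and 1 without DsRed replicate 2. For this list and those below, the shares of all tested genes were 8.14%, 3.32% and 14.7% higher and 4.18%, 5.97% and 8.06% lower. At an unadjusted p under 0.05 in MGT+TMP269 against MGT, the shares were 11.6% higher and 10.1% lower. Without DsRed replicate 2 the called shares were 12.5%, 19.3% and 21.4% higher and 13.8%, 11.3% and 15.3% lower. Mcm9, a helicase of DNA repair related to Mcm2-7, was at 2.22, 1.60 and 2.40 TPM in DsRed, 5.01, 3.46 and 9.59 TPM in MGT, and 9.61, 11.6 and 11.1 TPM in MGT+TMP269. All libraries with the factors were above all DsRed libraries, by 1.11 in MGT (adjusted p = 0.0396, and 0.0529 without DsRed replicate 2) and 1.94 in MGT+TMP269 (adjusted p = 0.00142). Pold2, the accessory subunit of the lagging-strand polymerase, and Donson, a factor of helicase assembly, rose in MGT+TMP269 against DsRed, by 0.69 (adjusted p = 0.0132) and 0.58 (adjusted p = 0.0472). In MGT against DsRed, Pold2 differed by 0.56 (adjusted p = 0.0511, and 0.000909 without DsRed replicate 2).

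Of 14 other genes of nucleotide synthesis, 13 were tested, and 1 rose in MGT against DsRed, 0 were called in MGT+TMP269 against MGT (1 higher, 1 lower at unadjusted p under 0.05), and 2 rose in MGT+TMP269 against DsRed. Leaving out DsRed replicate 2, the rises numbered 2, 2 and 4 and the falls 1, 2 and 1. Samhd1, which breaks down deoxynucleotides, was at 59.1, 22.9 and 35.5 TPM in DsRed, 84.2, 75.9 and 73.2 TPM in MGT, and 46.0, 46.2 and 53.1 TPM in MGT+TMP269. It was highest in every MGT library, with a difference of 1.07 from DsRed (SE 0.28, adjusted p = 0.0342). In MGT+TMP269 against MGT it differed by -0.67 (adjusted p = 0.194, and 0.0195 without DsRed replicate 2). The macrophage marker sum was also highest in MGT by its mean, at 2513 TPM against 1069 TPM in DsRed and 119.7 TPM in MGT+TMP269. Its part in the Samhd1 values was not tested. Paics, a purine synthesis enzyme, and Tk2, the mitochondrial thymidine kinase, rose in MGT+TMP269 against DsRed by 0.71 (adjusted p = 0.0142) and 0.46 (adjusted p = 0.0445). In MGT+TMP269 against MGT, Paics differed by 0.44 (adjusted p = 0.151, and 0.0063 without DsRed replicate 2).

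Among 18 other G1/S regulators, 16 were tested. E2f6, a repressor of the E2F family, rose in both comparisons with DsRed and was the 1 call in each (1.03, SE 0.20, adjusted p = 0.00758 in MGT, and 1.32, SE 0.20, adjusted p = 0.00129 in MGT+TMP269). It was at 21.4, 12.1 and 20.8 TPM in DsRed, 38.96, 35.7 and 36.4 TPM in MGT, and 43.6, 45.6 and 47.3 TPM in MGT+TMP269, with DsRed below all others. In MGT+TMP269 against MGT 0 of these regulators were called by limma, and 0 at an unadjusted p under 0.05. The rises among them numbered 1, 2 and 2 and the falls 0, 0 and 1 without DsRed replicate 2. E2f6 was then also called in MGT+TMP269 against MGT (0.29, adjusted p = 0.0132, against 0.459 with that library). Of 16 genes of S-phase chromatin and the checkpoint, 15 were tested, and Asf1a, a histone chaperone that works with the chromatin assembly factor, was the 1 call in each comparison (without DsRed replicate 2, 2, 2 and 1 rose and 1 fell in each). It was at 25.04, 18.6 and 24.9 TPM in DsRed, 37.1, 47.1 and 47.1 TPM in MGT, and 77.4, 74.1 and 65.3 TPM in MGT+TMP269. The 3 groups did not overlap, with differences of 0.91 (adjusted p = 0.00452), 0.72 (adjusted p = 0.0232) and 1.63 (adjusted p = 8.67e-05).

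The genes of mitosis had lower medians than the replication genes. Of 18 listed, 17 were tested, with a median log2 fold change of -0.42 in MGT against DsRed, -0.66 in MGT+TMP269 against MGT and -0.86 in MGT+TMP269 against DsRed, and the difference between the lists was not tested. In these comparisons 1, 0 and 8 fell, against 4.18%, 5.97% and 8.06% of all tested genes. In the second, 8 were lower at an unadjusted p under 0.05, against 10.1% of all tested genes. Cenpa, the histone of centromeres, was the 1 gene that rose in each. The falls numbered 8, 6 and 11 without DsRed replicate 2, against 13.8%, 11.3% and 15.3% of all tested genes. Cdk1, the kinase that drives entry into mitosis, was at 23.0, 13.7 and 22.4 TPM in DsRed, 10.4, 8.72 and 9.07 TPM in MGT, and 6.15, 5.66 and 4.46 TPM in MGT+TMP269. Its groups did not overlap, and it fell by 0.96 on the log2 scale in MGT (adjusted p = 0.0196) and by 1.66 in MGT+TMP269 (adjusted p = 0.000598) against DsRed. In MGT+TMP269 against MGT it differed by -0.70 (adjusted p = 0.0883, and 0.0046 without DsRed replicate 2).

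Inhibitors of the cyclin-dependent kinases were all tested, 7 of 7. Cdkn2a and Cdkn2b, which hold cells in G1, fell in MGT against DsRed and in MGT+TMP269 against DsRed. Cdkn2b was at 269, 274 and 272 TPM in DsRed, 95.9, 85.1 and 89.6 TPM in MGT, and 97.2, 91.3 and 80.9 TPM in MGT+TMP269, so that DsRed was above all others. Its difference was -1.58 in MGT (SE 0.10, adjusted p = 8.41e-06) and -1.59 in MGT+TMP269 (SE 0.10, adjusted p = 5.75e-06). Cdkn2a differed by -1.38 (adjusted p = 0.00109) and -1.64 (adjusted p = 0.000255). Cdkn2c rose with the factors by 0.55 (adjusted p = 0.0438) and fell with the compound by 0.61 (adjusted p = 0.037). Cdkn1a, the target of p53, was the most abundant of the list at 958 to 1316 TPM and was not called. Without DsRed replicate 2 it was lower in MGT than in DsRed by -0.32 (adjusted p = 0.00735) and higher in MGT+TMP269 than in MGT by 0.23 (adjusted p = 0.017). Of the 7 genes, 1, 2 and 0 then rose and 4, 1 and 2 fell in the 3 comparisons.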

How the data were processed

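Gene expression was measured by RNA sequencing in 9 libraries, 3 for each of 3 groups. The authors deposited 1 table of TPM values with 1 value per gene symbol and library. TPM keeps no read depth. The tools kallisto and DESeq2 and the build mm9 are named per the submitters' processing notes. Which step each served, its version, the annotation and the strand setting are not given in these sources. Per the labels' protocols, the library kit was directional.

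Of 34804 lines, 25 that carried a date in place of a symbol were left out, which left 34779 named genes. The 13228 genes whose TPM averaged 1 or more across the 9 libraries were tested with limma 3.58.1 (R 4.3.3) on log2(TPM + 1). The model held group alone and used every library (6 residual degrees of freedom). Its moderated test, with a variance trend, was two-sided. P-values were adjusted by Benjamini-Hochberg across these 13228 genes, and calls needed an adjusted p under 0.05. The fitting code was tested on simulated data. Log2 fold changes are on the log2(TPM + 1) scale, which understates changes of low genes, while plain folds are ratios of mean TPM. The values being TPM, no count model was run.

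The rule for values in full took the called genes and up to 2 uncalled genes per role by highest mean TPM. Genes given in full outside it (Mcm5, Rpa2 and Pola1) and those described by their range or by a single library were chosen after their values were seen, as were related genes given without being called (Rpa3 and Cdkn1a). The 39 genes and all lists were chosen with earlier results of these data known. Alternatives were another scaling, pseudocount, filter, variance model or set of libraries, and a replicate block. Promoters came from RefSeq tables of build GRCm38.p6, matched by symbol, and no coordinates were converted from mm9. Python 3.11.15 with pandas 2.3.3 and matplotlib 3.10.9 was used for promoters and figures. No libraries were identical (0 pairs).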

Additional observations from a re-analysis of the deposited data

How the results depend on the processing

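Rrm1 and Tyms passed the threshold in both comparisons with DsRed, and Rpa1 in MGT against DsRed, under all 18 alternatives. No result changed sign past the threshold. The replication genes called, higher and lower, numbered 0 and 3 for MGT against DsRed, 1 and 0 for MGT+TMP269 against MGT, and 1 and 2 for MGT+TMP269 against DsRed. The corresponding counts over all genes were 1077 and 553, 439 and 790, and 1950 and 1066. A pseudocount of 0.1 changed no call among the replication genes.

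For MGT against DsRed, 1 replication gene rose with limma's array weights. Over all genes 913 fell under median-ratio scaling, 1135 under quantile normalization, 343 when only the 2 groups compared were fitted, and 1402 with array weights. For MGT+TMP269 against MGT, 3 replication genes rose and 4 fell both with only the 2 groups and with array weights, and 2 fell under median-ratio scaling and under quantile normalization (Mcm5 and Mcm6). Over all genes 757 rose under quantile normalization, 2837 with 2 groups and 3045 with array weights, while 1639 fell with 2 groups and 1773 with array weights. For MGT+TMP269 against DsRed, 0 replication genes rose under median-ratio scaling, quantile normalization, no filter, a mean TPM of at least 5, or 2 groups, and 2 rose without the variance trend. Under median-ratio scaling 6 fell, under quantile normalization 7, and with array weights 6. Over all genes 1059 rose with 2 groups, and 1720, 1706 and 1803 fell under median-ratio scaling, quantile normalization and array weights. The cause was not tested. A filter at a mean TPM of 5 leaves 24 replication genes.

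The replicate numbers did not pair the libraries, since same-numbered libraries deviated from their group means with correlations of -0.07 to 0.13. With a replicate block, 276 of all genes rose in MGT+TMP269 against MGT, and 0 replication genes rose in MGT+TMP269 against DsRed.

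Leaving out 1 library at a time gave 0 to 1 replication genes higher and 3 to 4 lower for MGT against DsRed, 0 to 3 and 0 to 4 for MGT+TMP269 against MGT, and 0 to 1 and 2 to 7 for MGT+TMP269 against DsRed. Over all genes the ranges were 726 to 1652 higher and 342 to 1824 lower, 172 to 2558 and 450 to 1496, and 1108 to 2826 and 728 to 2022. The highest count of each range over all genes came from leaving out DsRed replicate 2, which also gave the most replication genes that fell. Without read depth, scarce genes such as Cdc6, Orc1 and Mcm10 carry an error that the files do not show.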
